A study of Homo sapiens with 20 samples.

Results

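The lysine methyltransferases and demethylases are the enzymes that add methyl groups to, or remove them from, lysine residues of histones and other proteins. They were taken here as the protein-coding genes of the GENCODE annotation whose symbols begin with KMT or KDM and a digit, with SETD, or with PRDM and a digit. This gave 54 of 20046 protein-coding genes, made up of 8 KMT, 20 KDM, 11 SETD and 15 PRDM genes. An m6A region was counted for a gene when the summit of one of its peaks lay in one of the gene's exons. By that rule 42 of the 54 genes held 207 exonic regions of the 43676 regions in the merged list. Regions are numbered within each gene from the 5′ to the 3′ end.

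The data are methylated RNA immunoprecipitation sequencing (MeRIP-seq) peak lists from 2 bladder cancer cell lines. T24 is the cisplatin-sensitive parental line, and T24R2 is its resistant derivative, selected by stepwise exposure to cisplatin and kept in medium that contained the drug. Both lines are labelled wild type, were harvested on day 3 and were sampled as 5 immunoprecipitated (IP) and 5 input libraries each. The resistant line is a single derivative, so resistance and any other difference between these cultures cannot be told apart, and the labels do not say whether the replicates were separate cultures, so all p-values measure only the spread between these libraries.

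N6-methyladenosine (m6A) is placed on nascent RNA by the METTL3-METTL14 complex, mostly at the motif DRACH, in which D stands for any base but C, R for a purine and H for any base but G, and is known to concentrate near stop codons and in long exons. The KMT2 and SETD1 enzymes methylate lysine 4 of histone H3 at promoters and enhancers, SETD2 methylates lysine 36 in transcribed genes, and the Jumonji-type KDM enzymes remove such marks. PRDM proteins combine a PR domain, related to the SET domain, with zinc fingers, and most act as sequence-specific regulators of transcription. KDM6A, KMT2C and KMT2D are recurrently mutated in urothelial cancer.

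The T24R2 lists were longer, with 22671 to 33120 peaks against 17203 to 22901 in T24, and T24R2 replicate 5 held the longest list. The lists hold no read counts, so the depth of each library is unknown, and more transcript and more methylation per transcript cannot be told apart where a region is called in one line and not in the other. Fold enrichment is the authors' ratio of IP over local input at a peak. Since the lists differ in length, each value was also ranked as a percentile within its own list, from 0 for the weakest peak to 100 for the strongest.

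The windows below show the sequence around the strongest shared region of each of the 4 symbol groups, given as RNA-sense DNA letters from hg38, with every DRACH match in capitals. Windows were cut at the edge of the coding sequence (CDS), and untranslated sequence is shown only as a short stretch around the motif nearest the median summit.
SETD1A region 6, CDS, chr16:30965712-30965812, plus strand: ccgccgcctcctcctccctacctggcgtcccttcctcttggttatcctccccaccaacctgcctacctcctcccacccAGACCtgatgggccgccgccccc
PRDM8 region 3, CDS, chr4:80203458-80203529, plus strand: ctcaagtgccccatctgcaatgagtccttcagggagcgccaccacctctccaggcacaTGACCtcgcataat
KDM7A region 2, 3′UTR, chr7:140090948-140090976, minus strand: gaaGAACAgaatGAACCtgatgctgcatt
KMT5C region 3, 3′UTR, chr19:55347622-55347650, plus strand: ctttgTGACTgcTGACCcctgagccaccc

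The next windows are around the weakest shared regions of the KDM, KMT and SETD groups. The SETD1A window above held 1 DRACH match, whereas these weakly enriched windows of the same length held 4, 5 and 5 matches, so in these examples the number of motifs and the enrichment did not run in the same order.
KDM3B region 1, CDS, chr5:138386091-138386191, plus strand: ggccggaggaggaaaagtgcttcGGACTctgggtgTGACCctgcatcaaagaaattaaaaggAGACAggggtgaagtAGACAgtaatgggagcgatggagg
KMT2E region 2, CDS, chr7:105101903-105102003, plus strand: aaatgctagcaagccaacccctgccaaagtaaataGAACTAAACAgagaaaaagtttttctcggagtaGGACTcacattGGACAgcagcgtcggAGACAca
SETD2 region 3, CDS, chr3:47122304-47122404, minus strand: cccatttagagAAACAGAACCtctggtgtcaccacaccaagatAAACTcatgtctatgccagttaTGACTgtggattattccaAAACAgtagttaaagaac

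The last windows belong to SETD1B regions that were called in every T24R2 library and in no T24 library.
SETD1B region 7, CDS, chr12:121814660-121814760, plus strand: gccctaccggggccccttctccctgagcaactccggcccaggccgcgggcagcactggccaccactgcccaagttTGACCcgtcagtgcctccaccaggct
SETD1B region 15, 3′UTR, chr12:121830847-121830875, plus strand: ggcacagtgaggAGACCccacacctttcc

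Most of the lysine methyltransferase and demethylase transcripts carried m6A regions, and many did so in every library. An exonic region was found for 77.8% of them, against 51.1% of all protein-coding genes, and 33 genes (61.1%) had a region called in all 10 libraries, against 28.0% of all genes. Marked members had a median of 4 regions, against 2 over all marked protein-coding genes. Of the 207 regions, 82 (39.6%) were called in all 10 libraries, where 31.8% of all exonic regions were, and 32 (15.5%) were called in a single library, against 20.5% of all exonic regions. These shares describe the genes and were not tested, and transcript length and expression, on which the number of regions can depend, were not matched.

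The symbol groups differed in how often they were marked. All 8 KMT genes held a region, with 52 regions of which 28 were called in all 10 libraries. Of the SETD genes, 10 of 11 held 58 regions, 26 of them in all 10 libraries. The KDM genes were marked in 16 of 20 cases and held 70 regions, but only 19 of these were called in all 10 libraries. The PRDM genes were the least often marked, with 8 of 15 genes, 27 regions and 9 regions in all 10 libraries. The 12 genes without an exonic region included KDM1B, KDM4E, KDM4F, SETD4, PRDM6, PRDM7, PRDM9, PRDM13, PRDM14 and PRDM16. PRDM9, which sets recombination sites in meiosis, and PRDM14, a regulator of germ cells, are known mainly from the germ line. Only uniquely mapped reads were kept by the authors, so the near-identical pair PRDM7 and PRDM9, and KDM4E and KDM4F beside KDM4D, may have lost reads and are uncertain.

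**Figure D1:**
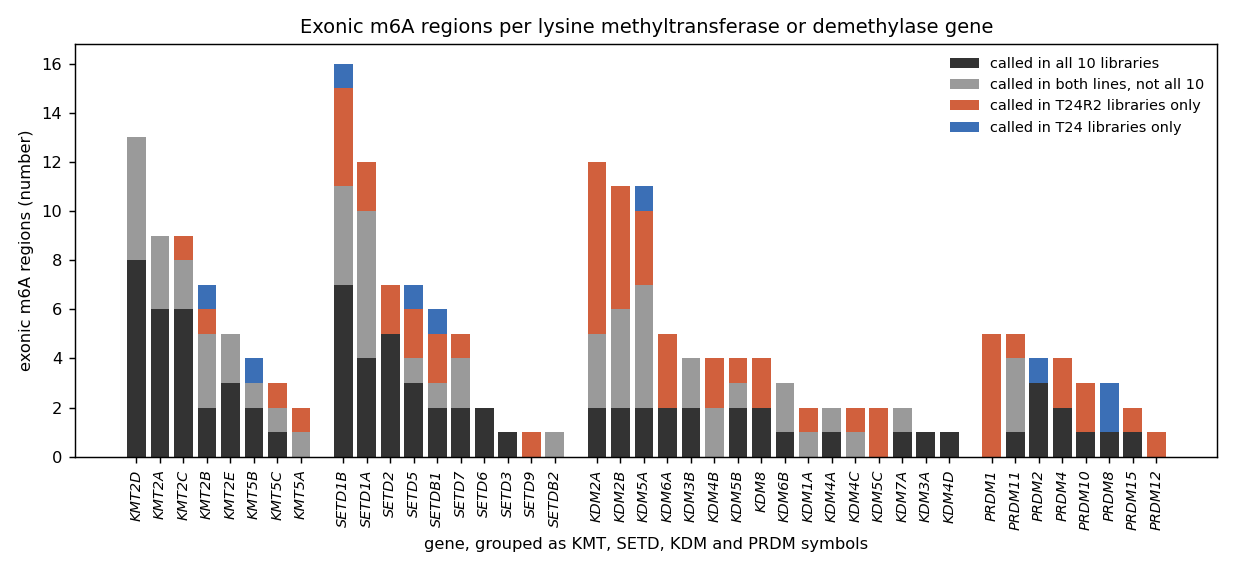
Exonic m6A regions (y axis, number) for each of the 42 genes with at least 1 region (x axis, grouped by symbol), stacked by the libraries that called them. SETD1B (16) and KMT2D (13) held the most regions, KMT2D held 8 that were called in all 10 libraries, and the 5 regions of PRDM1 were all called in T24R2 libraries only.

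SETD7, a lysine methyltransferase that the study used as the positive control of its immunoprecipitation, was marked in every library. Its region 4, at the stop codon and start of the 3′UTR in the last exon of 5806 nt, had fold enrichments of 15.6, 17.1, 10.6, 8.46 and 14.8 in T24 replicates 1 to 5 and of 12.1, 15.1, 7.04, 12.7 and 8.62 in T24R2 replicates 1 to 5. The lines overlapped at this region, and the difference of T24R2 minus T24 was -0.36 ± 0.28 (log2, standard error; limma adjusted p = 0.605). Region 2, in an alternative first exon, ranged from 6.57 to 11.5 in T24 and from 5.28 to 10.0 in T24R2 and overlapped as well (-0.41 ± 0.27, limma adjusted p = 0.543). The other 3 SETD7 regions were called in 2 to 6 libraries.

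Among the H3 lysine 4 methyltransferases, SETD1B and SETD1A, the catalytic subunits of the SETD1 complexes, held 16 and 12 regions. KMT2D and KMT2C, the enhancer enzymes, held 13 and 9, and KMT2A and KMT2B, the MLL-type promoter enzymes, held 9 and 7. Of the 13 KMT2D regions 8 were called in all 10 libraries, as were 6 of 9 in both KMT2A and KMT2C, 7 of 16 in SETD1B, 4 of 12 in SETD1A and 2 of 7 in KMT2B. The strongest KMT2D region, region 12 in coding exon 49 of 55, had fold enrichments of 6.86, 14.7, 16.7, 14.3 and 13.9 in T24 and of 11.5, 17.4, 8.23, 20.1 and 8.90 in T24R2. T24 replicate 1 was the lowest of the 10 values, and the lines overlapped.

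SETD1A region 6, 1953 nt wide in the genome with its summit in exon 8 whose window was shown above, stood highest of all member regions called in all 10 libraries by its median percentile, 96.6. Its fold enrichments were 13.5, 18.9, 19.6, 23.2 and 18.3 in T24 and 15.7, 12.4, 26.3, 14.9 and 16.1 in T24R2, so the lines overlapped and the highest value came from T24R2 replicate 3. SETD1B had regions from the first exon to the 3′UTR, but its first-exon region was called in 0 T24 and 3 T24R2 libraries. The 7 SETD1B regions called in all 10 libraries lay between exon 6 and the last exon. SETD1B region 11 lay in a coding exon of only 167 nt and still had values of 7.29 to 19.4 in T24 and 9.97 to 17.8 in T24R2, with a median percentile of 89.9. KMT2E, whose SET domain is thought to be inactive, held the weakest shared KMT region by mean level, with values of 2.59 to 13 and a median percentile of 17.3, in exon 17 of 27.

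SETD2 held 7 regions, 5 of them in all 10 libraries, and 3 of those 5 shared its exon 3. Region 3, the weakest shared SETD region by mean level, had values from 2.73 to 7.63 in T24 and from 3.91 to 7.68 in T24R2. Among the enzymes of histone H4 lysine 20, KMT5B held 4 regions, KMT5C 3 and KMT5A 2. KMT5C region 3, at the stop codon, was the strongest shared KMT region and had values of 10.8 to 18.2 in T24 and 13.4 to 22.1 in T24R2, while KMT5A had no region in all 10 libraries and its stop codon region appeared in 2 T24 libraries and 5 T24R2 libraries, at a median percentile of 4.75. KMT5A also has processed copies in the genome, so its values are uncertain under unique mapping. SETDB1, a methyltransferase of H3 lysine 9, held 6 regions, and its region 5 in a 629-nt exon stood at a median percentile of 94.9. SETDB2 held 1 region, in 3 T24 and 5 T24R2 libraries, SETD5 held 7, SETD6 2, SETD3 1 and SETD9 1.

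Among the demethylases, KDM2A and KDM2B, which act on H3 lysine 36 and bind CpG islands, held 12 and 11 regions, and KDM5A, which acts on H3 lysine 4, held 11. In each of these 3 genes only 2 regions were called in all 10 libraries. KDM2A region 3, in a 395-nt coding exon, had values of 11.5, 16.1, 8.72, 15.9 and 5.67 in T24 and 6.83, 9.29, 8.88, 15.8 and 10.7 in T24R2. KDM2B region 11, at the stop codon, ranged from 7.72 to 19.98 in T24 and from 6.53 to 13.3 in T24R2. This region overlaps RNF34 on the opposite strand, and the lists carry no strand, so it may belong to either gene. KDM5A region 8, at the stop codon, ranged from 5.98 to 8.93 in T24 and from 6.43 to 9.56 in T24R2. The lines overlapped at all 3 regions.

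The H3 lysine 27 demethylases were both marked in all 10 libraries. KDM6A held 5 regions with its strongest, region 2 in a 779-nt exon, at a median percentile of 91.9, and KDM6B held 3. KDM7A region 2, at the start of a last exon of 6443 nt, was the strongest shared KDM region by mean level, with values of 12.5, 7.47, 24.1, 14.7 and 13.7 in T24 and 19.2, 17.7, 18.1, 23.1 and 23.7 in T24R2. T24 replicate 3 was the highest of all, and the lines overlapped. KDM3B region 1, in a 600-nt coding exon, was the weakest by mean level, from 2.77 to 6.09 in T24 and from 2.68 to 4.42 in T24R2. KDM1A, the flavin-dependent demethylase of H3 lysine 4, held 2 regions that were called in at most 4 libraries and stood at median percentiles of 3.38 and 2.22. The other marked KDM genes were KDM3B, KDM4B, KDM5B and KDM8 with 4 regions each, KDM4A, KDM4C and KDM5C with 2 each, and KDM3A and KDM4D with 1 each.

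In the PRDM genes, PRDM8 region 3, 1979 nt wide and in the last exon, was the strongest shared region. Its values were 16.6, 19.4, 12.5, 15.5 and 9.73 in T24 and 11.4, 31.7, 11.3, 9.96 and 15.3 in T24R2, where replicate 2 stood far above the other libraries. PRDM4 region 3, at its stop codon, was the weakest shared PRDM region, with values of 4.39 to 9.21 in T24 and 2.45 to 10.99 in T24R2. PRDM2, also called RIZ, had both coding regions that were shared by all libraries in exon 8. PRDM1, the repressor that drives plasma cell differentiation, and PRDM11 held 5 regions each, PRDM10 3, PRDM15 2 and PRDM12 1.

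With the class order used here, the regions of these genes lay in coding sequence more often than exonic regions in general. Of 207 regions 150 (72.5%) were assigned to CDS, against 56.5% of all exonic regions, 34 (16.4%) to the 3′UTR, against 28.5%, 16 (7.73%) to the 5′UTR, against 10.6%, and 7 to noncoding exons. These shares depend on the order in which overlapping transcripts are read. With the 3′UTR placed before the CDS, the shares of the members were 47.3% CDS and 41.5% 3′UTR, and with the canonical transcript alone 78.8% were CDS. The shares of all exonic regions were not computed under these alternatives, so the contrast is shown for the first order only. Internal exons held 133 of the regions (64.3%, against 39.1% of all exonic regions), last exons held 55 (26.6%, against 44.2%), and a stop codon lay inside 30 (14.5%, against 20.6%).

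The share of internal exons that held a region rose with exon length. In the canonical transcripts of the 42 marked genes, 24 of 425 internal exons under 150 nt (5.65%) held a region, as did 35 of 253 exons from 150 to under 300 nt (13.8%), 20 of 33 from 300 to under 600 nt (60.6%), 19 of 20 from 600 to under 1200 nt (95%) and 17 of 17 of 1200 nt or more (100%). The shares over all marked protein-coding genes were 4.06%, 10.6%, 57.4%, 87.4% and 92.3%, so the rise with length was general and not particular to these enzymes. Marked internal exons of the members had a median length of 280 nt, and unmarked ones 130 nt.

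**Figure D2:**
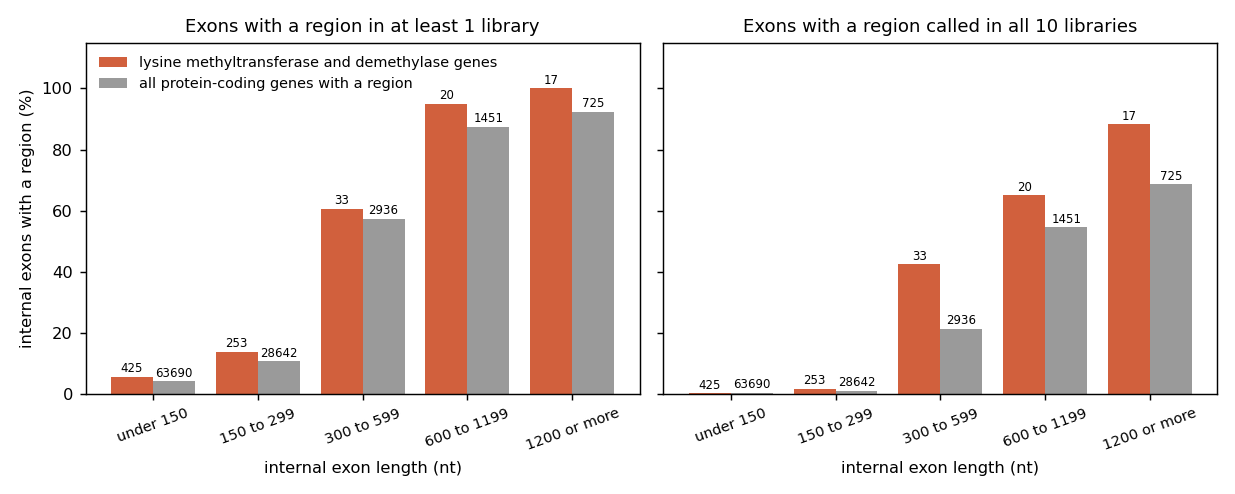
Share of internal exons of canonical transcripts with an m6A region (y axis, percent) by exon length (x axis, nt), for the lysine methyltransferase and demethylase genes and for all protein-coding genes with a region, with the number of exons above each bar. The share rose from 5.65% under 150 nt to 100% at 1200 nt or more in the members, and for regions called in all 10 libraries from 0.235% to 88.2%.

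A longer exon offers more bases in which a peak can fall, so regions were also counted per kilobase of exon. Member exons under 300 nt held 0.630 regions per kb, those from 300 to under 600 nt held 1.60, and those of 600 nt or more held 0.918. For regions called in all 10 libraries these densities were 0.0534, 1.07 and 0.625 per kb, and over all marked genes 0.0402, 0.525 and 0.50. The density of shared regions was thus higher in both longer classes than under 300 nt, and highest in the middle class. The middle class rests on 33 exons and 14 shared regions of the members. A merged region counts once however wide it is, and shared member regions had a median width of 679 nt. The effect of width on these densities was not tested. DRACH matches stood at 19.7, 22.6 and 19.9 per kb of member exon, so the middle class was also the densest in motifs. Over all marked genes they stood at 20.3, 19.9 and 20.8 per kb. In the middle class marked member exons had 25.6 per kb and unmarked ones 17.2, while under 300 nt they had 18.9 and 19.8. Whether motif density accounts for region density was not tested.

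The 17 longest internal exons lay in 9 genes and held between 1 and 4 regions each. Exon 8 of PRDM2 (4414 nt) held 3 regions, exon 3 of SETD2 (4367 nt) held 4, and exon 27 of KMT2A (4249 nt) held 3, all 3 of them called in all 10 libraries. KMT2D had 4 such exons, exon 40 (2790 nt), exon 35 (1865 nt), exon 32 (1812 nt) and exon 11 (1539 nt). KMT2C had exons 36, 38 and 43, KMT2B exons 3 and 28, SETD1B exons 6 and 12, KMT2A also exon 3, KDM6B exon 12 and KDM3B exon 8. Exon 32 of KMT2D and exon 8 of KDM3B were the exceptions without a region in all 10 libraries: the former had 2 regions, each in 3 T24 and 3 T24R2 libraries, and the latter 2 regions, each in 4 T24 and 5 T24R2 libraries.

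**Figure D3:**
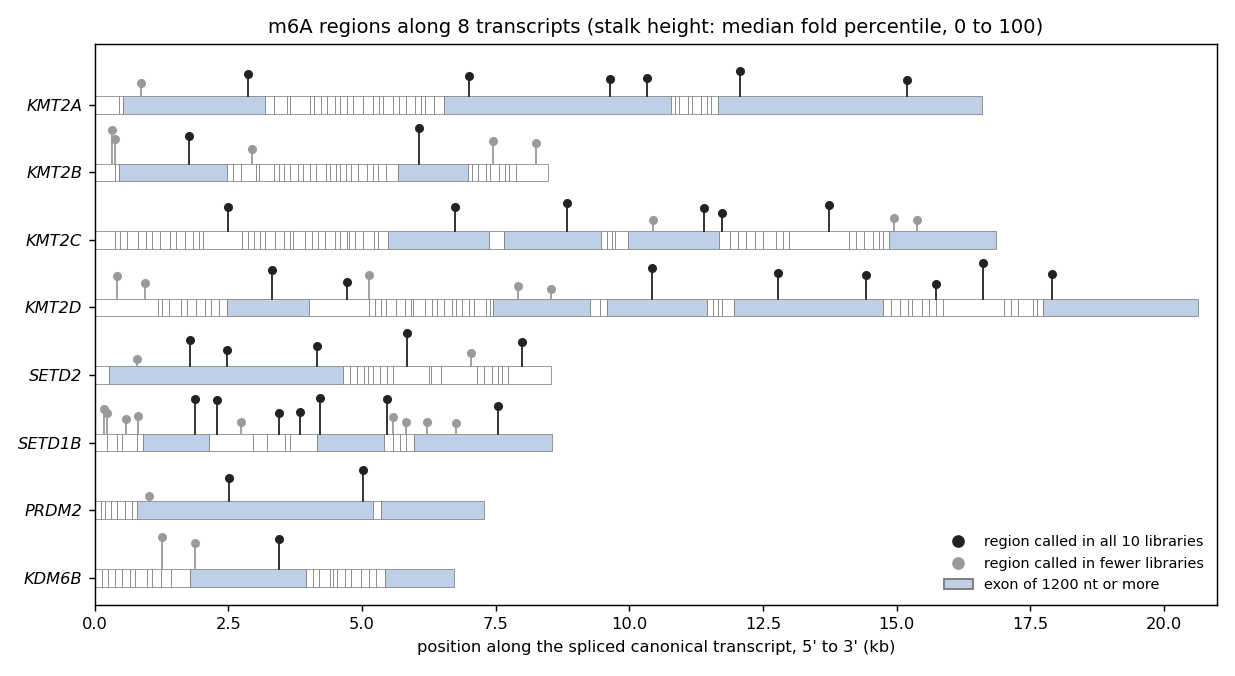
Spliced canonical transcripts of 8 genes drawn to scale (x axis, kb from the transcript start), with exon boundaries, exons of 1200 nt or more shaded, and 1 stalk per region at its median summit, as tall as its median percentile of fold enrichment. Regions that lie outside canonical exons are not drawn. The stalks of KMT2A, KMT2C and SETD2 stand mostly on shaded exons, and the runs of short exons in these genes carry few. Most stalks of SETD1B and KMT2B stand on unshaded exons, and SETD1B has stalks in its short exons 13, 14 and 15 (167, 132 and 120 nt).

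Within long internal exons few summits of the members lay near the splice junctions. In exons of 600 nt or more, 1 of 50 member summits (2%) lay within 100 nt of an exon end, where 13.4% of the exon bases lie. Over all marked genes 8.41% of 2593 summits did, against 15.3% of the bases. Among regions called in all 10 libraries the shares were closer, with 1 of 34 member summits (2.94%) and 4.81% of 1414 over all marked genes. The member shares rest on 1 summit.

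Within 50 nt of the median summit, the motif content of the member regions was close to that of all exonic regions. A DRACH match lay within 50 nt of the median summit, on the sense strand, in 88.3% of 206 member regions and in 88.4% of 25782 regions of all protein-coding genes. The reverse complement of these windows held a match in 73.3% and 72.4%. Within 50 nt GGAC, a 4-letter form of the core, was found in 47.6% of the member windows. Their reverse complements held it in 29.1%, against 46.7% and 26.2% over all genes. By fold enrichment the shared member regions had a median percentile of 64.5, against 68.2 for shared regions of all genes.

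The first comparison between the lines asks which regions were called in one line only. Per library, 104 to 122 member regions in 34 to 36 genes were called in T24, with a mean of 113 ± 8.56 (SD, n = 5), and 134 to 187 in 38 to 42 genes in T24R2, with a mean of 151 ± 20.9 (SD, n = 5). These ranges did not overlap, and of the list lengths only T24R2 replicate 2 lay within the T24 range. As a share of all exonic regions of a library the members took 0.778% to 0.874% in T24 and 0.823% to 0.934% in T24R2, which overlapped. When every list was cut to the strongest 17203 peaks by −log10 q, 95 to 107 member regions remained in T24 and 104 to 127 in T24R2, which overlapped too.

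**Figure D4:**
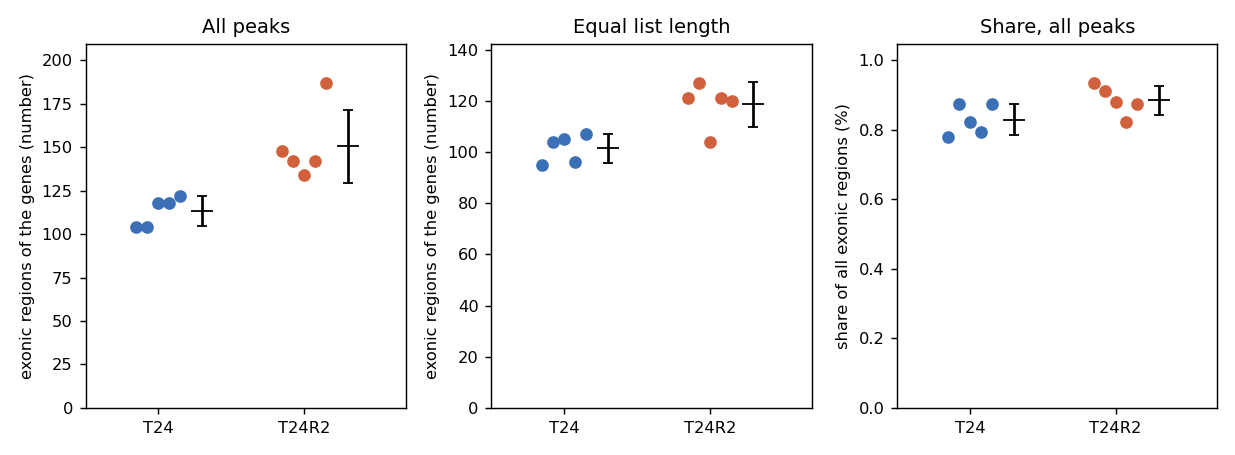
Member regions per library in T24 and T24R2 (5 libraries each), with all peaks (left, number), with every list cut to 17203 peaks (middle, number) and as a share of all exonic regions of the library (right, percent). Points are libraries and the bars are mean ± SD. The lines are separate with all peaks and overlap in the other panels.

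Of the 207 regions, 48.8% were called in more T24R2 than T24 libraries and 14 (6.76%) in more T24 libraries. Of all exonic regions 46.8% and 15.5% were. With lists of equal length, 73 of 167 member regions (43.7%) were more frequent in T24R2 and 25 (15%) in T24, against 35.1% and 26.1% of all exonic regions. By group, 45 of 70 KDM regions, 27 of 58 SETD regions, 15 of 27 PRDM regions and 14 of 52 KMT regions were called in more T24R2 libraries.

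For presence in 1 line, 3 regions were called in 5 of 5 T24R2 and 0 of 5 T24 libraries, and 0 in the opposite pattern. Over all 43676 regions 3.02% and 1.05% had these patterns, and over exonic regions 2.29% and 0.935%, so 3 of 207 is near the background. The 3 regions are KDM5C region 2 and SETD1B regions 7 and 15. Each had a Fisher's exact p of 0.00794, the smallest that 5 against 5 libraries allow, and an adjusted p of 0.195 over all regions. None of the 43676 regions passed the adjusted threshold, while 7.11% (more often in T24R2) and 2.09% (more often in T24) had an unadjusted p under 0.05.

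KDM5C, an X-linked demethylase of H3 lysine 4, had no region in T24. Its region 2, at the stop codon in the last exon, had fold enrichments of 3.38, 2.12, 2.24, 2.37 and 2.24 in T24R2 replicates 1 to 5. These are among the weakest peaks of their lists, with percentiles from 0.205 to 6.37. The summit lay in an exon in 4 of these 5 libraries, so the region would not meet the rule if an exonic summit were required in each. KDM5C region 1, in a 600-nt coding exon, was called in 4 T24R2 libraries at 4.11, 7.45, 5.83 and 5.29. KDM5C had no region called in all 10 libraries that could show its transcript to be measurable in T24.

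SETD1B region 7 (chr12:121814490-121814884), in the 825-nt exon 7, had values of 8.14, 9.16, 3.25, 4.95 and 3.10 in T24R2. Region 6, just upstream in the same exon, was called in all 10 libraries at a median percentile of 87.4. Region 15 (chr12:121830723-121831261), in the 3′UTR, had values of 4.37, 7.65, 3.81, 4.54 and 6.35 in T24R2, and its neighbour, region 16 in the same exon, was called in all 10 libraries. The transcript was therefore measured in both lines, and the values of both line-restricted regions lay in the lower part of most lists, with median percentiles of 20.8 and 16.9.

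A further 8 member regions had an unadjusted Fisher's exact p of 0.0476, all of them called more often in T24R2. Those in 0 T24 and 4 T24R2 libraries were KDM5C region 1, KDM2B region 7, KDM8 region 2, PRDM4 region 4 and SETD2 region 6. Those in 1 T24 and 5 T24R2 libraries were KDM4B region 4, SETD1A region 3 and SETD1B region 12. Where they were called, in replicate order, SETD2 region 6 had 5.16, 5.36, 4.89 and 8.30, KDM2B region 7 had 4.17, 5.90, 6.91 and 8.93, KDM8 region 2 had 5.61, 7.27, 5.64 and 5.34, and PRDM4 region 4 had 3.42, 5.30, 2.54 and 6.01. KDM4B, which acts on H3 lysine 9, had 7.48 in T24 replicate 3 and 5.68, 3.92, 3.68, 8.53 and 11.01 in T24R2 at region 4, in its 3′UTR. SETD1A region 3, in the 5′UTR, had 4.04 in T24 replicate 2 and 3.72, 4.64, 3.69, 4.64 and 3.38 in T24R2, and SETD1B region 12 had 7.98 in T24 replicate 3 and 4.83, 6.42, 6.71, 5.58 and 5.63 in T24R2. In the last 3 regions the single T24 value lay within or above the T24R2 range. Together with the 3 above this makes 11 of 207 regions, where 6.06% of exonic regions had such a p in this direction and 1.7% in the other. With lists of equal length 0 member regions were called in all libraries of T24R2 and none of T24, and 1 had an unadjusted p under 0.05. KDM8 region 2 also overlaps an unnamed gene on the opposite strand.

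By gene, 4 members had regions in T24R2 libraries only. KDM5C and PRDM1 had a region in each of the 5 T24R2 libraries, and PRDM12 and SETD9 in 1 library each. PRDM1, singled out after its values were seen, had 5 regions, of which region 3 in the 1109-nt coding exon 5 (5.29, 5.74 and 6.45 in replicates 2, 4 and 5) and region 5 at the stop codon (7.98, 6.45 and 4.11 in replicates 1, 3 and 5) were called in 3 libraries each and the others in 1 each. No single PRDM1 region was called in all T24R2 libraries, and the Fisher's exact p of regions 3 and 5 was 0.167. In the other direction, PRDM8 region 1, in a noncoding first exon, was seen in 3 T24 libraries and 0 T24R2 libraries, region 2 in 2 and 0, while its region 3 was called in all 10. SETDB1 region 1 was called in 5 T24 and 3 T24R2 libraries.

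The second comparison asks whether regions called in every library differed in enrichment. Log2 fold enrichment, centred on each library's median, was compared by limma over all 9577 such regions, of which 82 belonged to the members. Over all regions 51 (0.533%) were higher and 31 (0.324%) lower in T24R2 at an adjusted p under 0.05, 0.856% in all, and 0 member regions were among them. The differences of the member regions ran from -0.91 to 0.78 with a median of -0.12, against 0.016 over all regions. Of the 82 member regions 50 were below 0, against 4631 of all 9577. The median standard error of a member difference was 0.28. In simulated data of this size limma recovered 16 of 100 regions with a planted log2 difference of 1 and 0 of 100 with 0.5, so differences of the size seen here could have been missed.

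Unadjusted limma p-values under 0.05 were found for 8 member regions, 2 higher and 6 lower in T24R2, where 7.7% and 6.36% of all regions had them. The count was 4 without T24 replicate 4, 5 without T24 replicate 2, 5 without T24R2 replicate 4 and at most 10 with any library left out. An exact permutation test likewise passed 0 member regions after adjustment and had 9 at an unadjusted p under 0.05. The 8 regions are named here after their values were seen. KDM6B region 3, 2008 nt wide with its summit in exon 12, had values of 9.18, 6.79, 8.37, 8.70 and 4.82 in T24 and 10.6, 18.7, 12.7, 11.3 and 16.4 in T24R2. Every T24R2 value was above every T24 value, and the difference was 0.78 ± 0.24 (log2; limma adjusted p = 0.125). KMT2A region 4, in exon 3, had values of 4.01, 2.62, 7.32, 2.74 and 7.13 in T24 and 6.09, 8.34, 6.79, 7.34 and 8.98 in T24R2, with a difference of 0.69 ± 0.30 (limma adjusted p = 0.287), and the lines overlapped.

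KMT5B region 4, 2030 nt wide and over the stop codon in the last exon, had values of 23.8, 21.4, 31.2, 11.1 and 18.2 in T24 and 8.87, 8.10, 13.5, 14.1 and 14.8 in T24R2. T24 replicate 4 was the only T24 library within the T24R2 range, and the difference was -0.89 ± 0.28 (limma adjusted p = 0.131). Without T24 replicate 4 it was -1.13 and passed the threshold (limma adjusted p = 0.0466), the only member region that did under any library left out. SETD1B region 9 had values of 3.53, 6.72, 20.4, 13.2 and 16.6 in T24 and 8.60, 8.05, 3.98, 4.50 and 5.12 in T24R2 (-0.91 ± 0.38, limma adjusted p = 0.272), a wide spread within T24.

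The remaining 4 regions were lower in T24R2 by smaller amounts. KMT2C region 5 differed by -0.76 ± 0.29, SETD2 region 5 by -0.58 ± 0.23, SETD2 region 4 by -0.55 ± 0.26 and PRDM2 region 4 by -0.54 ± 0.25 on the log2 scale, with limma adjusted p-values between 0.216 and 0.355. As deposited, the fold enrichments of the lines overlapped at each of them. Once centred on the library median, every T24R2 value of PRDM2 region 4 lay below every T24 value, as every T24R2 value of KDM6B region 3 lay above. Both had the smallest p this test allows (two-sided exact permutation p = 0.00794, unadjusted, adjusted p = 0.193), and 0 of all 9577 regions passed. At an unadjusted p under 0.05 the permutation test had 9 of 82 member regions, against 1236 of all 9577. The share of all regions with such full separation was not counted, so these 2 are not shown to exceed it. The SETD2 pair lies on the same transcript, in exons 3 and 12.

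**Figure D5:**
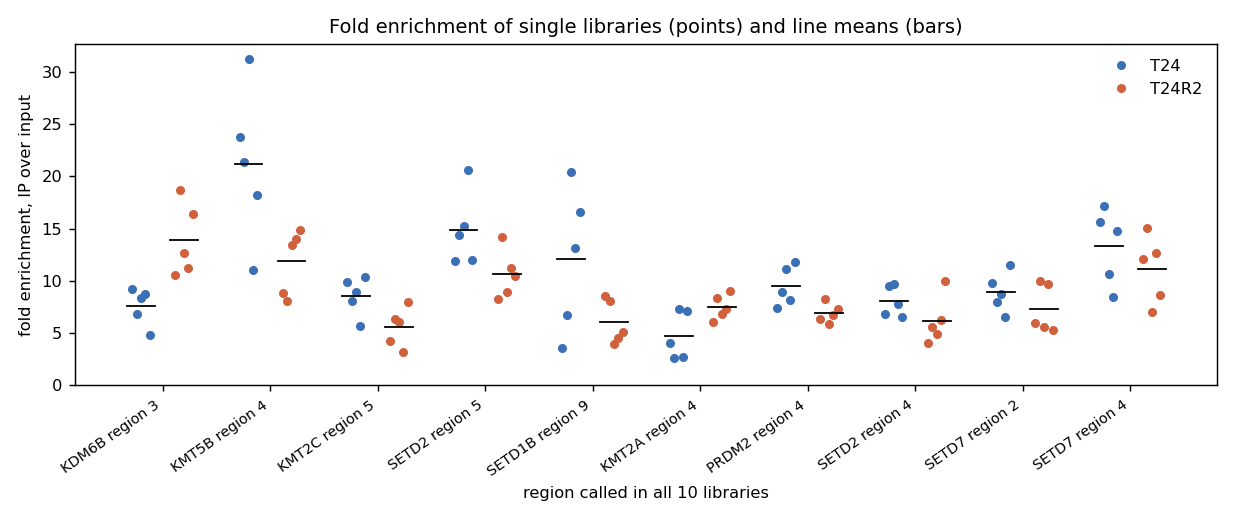
Fold enrichment of IP over input (y axis, ratio) in single libraries (points) for the 8 member regions with an unadjusted limma p under 0.05 and the 2 shared SETD7 regions (x axis), in T24 and T24R2, with black bars at the line means. Among the 10, KDM6B region 3 is the one without overlap between lines in these uncentred values, and KMT5B region 4 is overlapped through 1 T24 library at 11.1.

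Other genes of the same pathways, taken from lists of known enzymes and subunits, were marked as well. Over all protein-coding genes 51.1% held an exonic region, and 31.8% of all exonic regions were called in all 10 libraries. Of 18 other lysine methyltransferases 14 held 69 regions, of which 22 were called in all 10 libraries. Of 8 further Jumonji-type genes 7 held 28 regions with 9 in all 10 libraries, of 13 subunits of the KMT2 complexes 11 held 39 with 15, of 8 subunits of Polycomb repressive complex 2 (PRC2) 6 held 8 with 4, and of 8 corepressor partners of KDM1 and KDM5 5 held 20 with 5. EHMT1, which methylates H3 lysine 9, held the only region of these lists called in 5 T24R2 and 0 T24 libraries. It was assigned to 3′UTR in a last exon of 5338 nt, whereas another EHMT1 3′UTR region lay in a last exon of 1355 nt. No region had the opposite pattern, and 2.29% and 0.935% of all exonic regions had these patterns. Unadjusted Fisher's exact p-values of 0.0476 were found for 4 more regions called more often in T24R2. They lay in SIN3B, in JARID2 and, with a pair of regions, in RIOX2. NSD2, which methylates H3 lysine 36, had a region with the reverse tendency, in 4 T24 libraries against 0 in T24R2 (unadjusted Fisher's exact p = 0.0476). Among all exonic regions, 6.06% fell below 0.05 in this test before adjustment with more T24R2 libraries, and 1.7% with more T24 libraries. The regions named here are therefore not shown to exceed the background. This NSD2 region was assigned to 3′UTR in a last exon of 6480 nt, whereas other NSD2 regions lay in a last exon of 3555 nt. Which transcripts carried the EHMT1 and NSD2 regions is unknown. Of the 55 regions of these lists tested by limma, 0 passed the adjusted threshold.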

How the data were processed

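MeRIP-seq libraries of T24 and T24R2 cells (5 IP and 5 input libraries each, grouped by the sample titles) were analysed from the authors' peak lists. Per the paper's methods and the submitters' processing notes, reads were aligned to hg38 with STAR 2.7.0, unique reads without duplicates were kept with SAMtools 1.10, and MACS2 (version 3.0.0a6 in the notes) called peaks of each IP library over its input. Each deposited row gives positions, a score derived from the q-value, a ratio (fold enrichment of IP over local input), a −log10 p-value and a −log10 q-value, all computed by the authors; the lowest −log10 q was 2.00. The lists hold no read counts and no strand, so read-based count tests like those of the study were not run, and library depth is unknown. Library preparation kept strand, but gene overlaps could not be resolved.

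The deposited merged list was identical to the merge of the 10 lists. Of its regions 43259 lay on reference chromosomes, 417 lay elsewhere, and none ran past a chromosome end. Exons, CDS and UTRs were taken from GENCODE 44. Each exonic summit took the first class that any transcript gave it, in the order CDS, 3′UTR, 5′UTR, noncoding exon. A region took the most frequent class of its exonic summits, with ties settled by the same order. A region counted as called in a library with a peak that shared at least 1 base with it. Presence in 5 against 5 libraries was compared with Fisher's exact test (two-sided), adjusted by Benjamini-Hochberg over all 43676 regions. Log2 fold enrichment needed no pseudocount, was centred on each library's median over the 9577 regions called in all 10 libraries, and was tested with limma 3.58.1 (trend) in R 4.3.3, adjusted over all of them and tested on simulated data. Replicate numbers did not pair the samples.

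Some items are not reported here. The members and gene lists were chosen with earlier results of these data known. Genes were given per-library values when a region was called in all libraries of one line and none of the other or had an unadjusted Fisher p under 0.05, when limma passed, when they were among the 5 with the most regions (6 through a tie), when a region was the strongest or weakest of its symbol group, and for SETD7. PRDM1 and the regions with an unadjusted limma p under 0.05 were added after their values were seen. Alternatives were stricter q and fold limits, lists of equal length, other class orders and exon choices, other motifs and windows, other scales and tests, a block by replicate number, and each library left out in turn.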

Additional observations from a re-analysis of the deposited data

Results flagged for a closer look

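Of 56 groups of 5 libraries tested for a single value far from the others, 7 were picked out, and chance picks about 1 in 20. In T24R2, replicate 5 stood apart by its list length of 33120 peaks (next 25603), its 187 member regions (next 148) and its 42 marked member genes (next 39). Without it, 189 member regions in 40 genes remained in the merged data, and 3 of them were still called in every T24R2 and no T24 library. Among shared regions, the fold enrichment of KDM5A region 8 was 5.98 in T24 replicate 3 (next 8.19), that of KMT2D region 12 was 6.86 in T24 replicate 1 (next 13.9), that of PRDM8 region 3 was 31.7 in T24R2 replicate 2 (next 15.3), and that of SETD1A region 6 was 26.3 in T24R2 replicate 3 (next 16.1).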

How the results depend on the processing

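Of 297 values recomputed under an alternative, 266 were classed as the same, 30 moved, 1 became stronger and 0 reversed. For counts, the same meant within a set ratio of the main count. Shares and median exon lengths had to stay within their confidence interval or spread over libraries. For the fold difference of a single region, it meant only an unchanged sign and no adjusted p under 0.05. The size could change, as for SETD1B region 9, at -0.91 and, without T24 replicate 1, -1.30. The count of member regions called in all T24R2 and no T24 libraries, 3, was 0 with −log10 q of at least 5, with −log10 q of at least 10, with a fold enrichment of at least 4 and with lists of equal length, 13 under the rule of at least 4 against at most 1 library, and 3 to 5 with single libraries left out, the 5 without T24 replicate 3 or T24R2 replicate 3. The 82 member regions called in all 10 libraries were 37 with −log10 q of at least 10 and 33 when a peak had to cover 50% of a region. The 82 regions of all genes called by limma were 13 on within-list percentiles, 276 on log2 of −log10 q, 18 of 3799 with −log10 q of at least 10, and 34 to 79 with single libraries left out. An exact permutation test had 1236 at an unadjusted p under 0.05 against 1346 by limma. It could call none at the adjusted threshold, since its smallest possible p had an adjusted p of 0.193. No member region was called in any of these except KMT5B region 4 without T24 replicate 4. The CDS share of member regions was 47.3% with the 3′UTR before the CDS and 78.8% in canonical exons, and the 3′UTR share was 41.5% in the former. The median marked exon of 663 nt was 1050 nt with the longest exon of any transcript and 825 nt with −log10 q of at least 10. The motif share was 47.6% with GGAC and 62.1% with a window of 25 nt, where all protein-coding genes had 46.7% and 68.5%. The cause of these moves was not tested. Same-numbered replicates did not deviate together (correlations from -0.0419 to 0.121). With a replicate block limma called 65 regions, and the presence test called 0 with a smallest possible p of 0.0625, also 0 without the block. Fisher counts at an unadjusted p under 0.05 were 1 member region with lists of equal length, 3 with −log10 q of at least 10 and 7 with a fold of at least 4, against 11, and ran from 11 to 24 with single libraries left out, with 18 without T24 replicate 4 and 24 without T24R2 replicate 3.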

Other observations

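Outside the exons of canonical transcripts, 21 member regions in 13 genes lay in exons of other annotated transcripts, 11 of them in last exons. Of these regions 5 were called in all 10 libraries: KMT5B region 3 and PRDM2 region 4, both in the last exon of a shorter transcript (1464 and 1565 nt), SETD1A region 1, SETD6 region 1 and SETD7 region 2, all in first exons. PRDM11, a PRDM gene of unsettled function, had 2 regions in an alternative last exon of 2245 nt, of which region 2 was called in 4 T24 and 5 T24R2 libraries. KMT2A had 2 regions in the 2371-nt last exon of a transcript of 2 exons, called in 1 and 3 T24 and in 1 and 2 T24R2 libraries. The lists do not tell which transcript carried the mark.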
